A study of Mus musculus with 6 samples.

Results

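Levels of 4 cytosolic sensors of double-stranded RNA and 6 toll-like receptors were followed in RNA-seq of mouse embryonic fibroblasts (MEFs). The sensors were Eif2ak2, Ddx58, Ifih1 and Dhx58, and the receptors were Tlr1, Tlr2, Tlr3, Tlr6, Tlr7 and Tlr8. They were chosen by name as innate sensors annotated on the minus strand, and the 10 genes are 10 of the 38483 listed. MEFs are fibroblasts grown out of minced embryos. The cultures came from CD1 embryos of embryonic day 14.5 taken from a single pregnant mouse, after limbs, brain and internal organs had been removed. Cells were kept in DMEM with fetal bovine serum without further treatment, and RNA was taken at passage 3. The cultures were 3 wild type (WT) and 3 that carried a heterozygous knockout of Nipbl (Nipbl+/-), a model of Cornelia de Lange syndrome. Nipbl encodes the factor that loads cohesin onto chromosomes. The labels give the 6 cultures as separate samples but do not tie them to individual embryos, so p-values measure only the spread between these cultures.

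The total count per culture lay between 20307454 and 25990783. All 19214 genes of the plus strand were listed at 0 in every culture, so toll-like receptors, partners and cell markers on that strand could not be followed. Levels are given as CPM, counts scaled to a common library size after TMM normalization, and differences as log2 fold changes of Nipbl+/- against WT from edgeR's quasi-likelihood test, adjusted over the 9061 genes that passed a filter on low counts. All 10 genes passed that filter. Nipbl itself had 128, 145 and 135 CPM in WT cultures 1, 2 and 3 and 101, 101 and 100.3 CPM in Nipbl+/- cultures 1, 2 and 3. Its log2 fold change was -0.43 ± 0.057 (SE, n = 3 each) with an adjusted p of 0.0213 by edgeR's quasi-likelihood test, and it was lower in each mutant culture than in each WT culture. The fibroblast genes that could be read were high, with fibronectin (Fn1) between 14360 and 18188 CPM, and 15 of 18 fibroblast markers lay on the plus strand.

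Cells detect foreign or misprocessed RNA in separate compartments. In the cytosol, PKR (the product of Eif2ak2) binds double-stranded RNA and phosphorylates eIF2α to stop translation, while the helicases RIG-I (Ddx58), MDA5 (Ifih1) and LGP2 (Dhx58) recognise viral RNA, with LGP2 modulating the other two, which signal through MAVS to interferon. Toll-like receptors sit in membranes. TLR1, TLR2 and TLR6 recognise microbial lipoproteins at the cell surface, and TLR3, TLR7 and TLR8 recognise RNA in endosomes, double-stranded for TLR3 and single-stranded for TLR7. The cytosolic sensors are induced by interferon in most cell types, whereas TLR7 and TLR8 are best known from cells of the immune system.

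The interferon-stimulated response element is the promoter motif through which interferon acts, and its core was searched as GAAA, any 2 bases and a further GAAA, on both strands of the RefSeq promoters (GRCm38.p6, 250 bases before to 50 after each start). The core was present in 1131 of 32851 promoters (3.44%). Promoters were matched for 8 of the 10 genes, with none for Dhx58 and Tlr7. Stretches of the promoters that held a match are shown because every sensor with a promoter had one. Each is written 5′ to 3′ on the minus strand, with the match in capitals (in Tlr6, both overlapping matches).
Eif2ak2, chr17:78882523-78882599: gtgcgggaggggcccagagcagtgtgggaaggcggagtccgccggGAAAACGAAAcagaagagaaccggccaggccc
Ddx58, chr4:40239776-40239868: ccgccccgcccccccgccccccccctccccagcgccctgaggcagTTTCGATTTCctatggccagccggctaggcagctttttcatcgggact
Ifih1, chr2:62646206-62646268: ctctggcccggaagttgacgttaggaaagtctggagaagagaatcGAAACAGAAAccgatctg
Tlr6, chr5:64959228-64959327: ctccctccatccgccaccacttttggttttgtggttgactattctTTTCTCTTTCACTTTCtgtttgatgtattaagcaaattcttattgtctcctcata

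All 3 sensors with a promoter held the core just after the start, at base 19 in Eif2ak2, base 3 in Ddx58 (in the reverse orientation) and base 33 in Ifih1, counting the start as base 1. Among the receptors it was found in 1 of the 2 Tlr6 promoters, as a pair of overlapping matches that began 116 and 110 bases before the start. It was not found in the other Tlr6 promoter, in either Tlr1 promoter or in those of Tlr2, Tlr3 and Tlr8. A match is a description of letters and not evidence of binding.

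Among the 10 genes, Tlr7 and Tlr8 had the largest differences, with fitted levels 2.59-fold and 2.17-fold higher in Nipbl+/- than in WT MEFs. The 4 cytosolic sensors had log2 fold changes between -0.14 and 0.13. None of the 10 passed an adjusted p of 0.05 by edgeR's quasi-likelihood test, which called 1.95% of the tested genes, 1.04% higher and 0.916% lower in Nipbl+/- MEFs. An unadjusted p under 0.05 was seen for 2 of the 10 (Tlr7 and Tlr8), as for 16.9% of all tested genes. EdgeR's exact test, its likelihood ratio test, DESeq2 and the quasi-likelihood test without a filter on low counts each called Tlr7 and no other member, where they called 4.77%, 4.88%, 4.56% and 2.41% of their genes. For Tlr7 alone, all 3 Nipbl+/- cultures lay above all 3 WT cultures, which held for 12.0% of tested genes. The median log2 fold change over all tested genes was -0.0057.

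**Figure D1:**
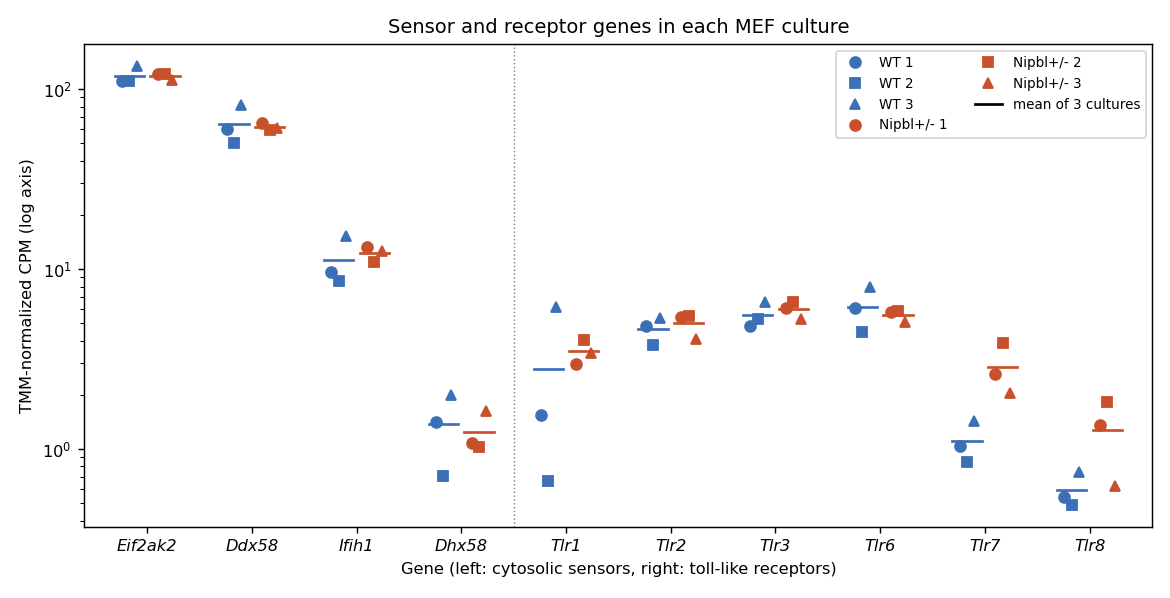
TMM-normalized CPM (log axis) of the 4 cytosolic sensors (left of the dotted line) and 6 toll-like receptors in each culture, with WT in blue, Nipbl+/- in red, a symbol for each replicate number and the mean of 3 cultures as a bar. The sensors span from 0.712 to 135 CPM with overlapping genotypes, and Tlr7 is the gene whose groups do not overlap.

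Eif2ak2 (chr17:78852564-78882573, minus strand, mm10), which encodes the kinase PKR, was the most abundant of the 10. WT cultures 1, 2 and 3 had 111, 111 and 135 CPM and Nipbl+/- cultures 1, 2 and 3 had 121, 122 and 113 CPM. The mutant cultures lay inside the WT range. Its log2 fold change was -0.00 ± 0.083 (SE, n = 3 each), with a 95% interval from -0.19 to 0.19 and an adjusted p of 0.988 by edgeR's quasi-likelihood test. The sign rested on the processing, and was positive at 0.03 when counts were scaled by library size alone and at 0.10 without WT culture 3. Plus-strand genes that overlap Eif2ak2 (n-R5s29, AC154274.1) and Dhx58 (Gm11547) were listed at 0, and since the strand setting of the counting is not given in the sources used here, reads of the 2 strands cannot be told apart there.

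Ddx58 (chr4:40203773-40239828), the gene of the RNA helicase RIG-I, had 59.8, 50.2 and 81.9 CPM in WT cultures 1, 2 and 3 against 64.8, 59.0 and 60.9 CPM in Nipbl+/- cultures 1, 2 and 3. The WT cultures again held both the highest and the lowest value. The difference was -0.06 ± 0.153 on the log2 scale (SE, n = 3 each), with a 95% interval from -0.40 to 0.29 and an adjusted p of 0.895 by edgeR's quasi-likelihood test.

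Ifih1 (chr2:62595798-62646255) encodes MDA5, the sensor of long double-stranded RNA. Its levels were 9.66, 8.63 and 15.3 CPM in WT cultures 1, 2 and 3 and 13.3, 10.9 and 12.6 CPM in Nipbl+/- cultures 1, 2 and 3. The mutant cultures lay above WT cultures 1 and 2 and below WT culture 3. The log2 fold change was 0.13 ± 0.205 (SE, n = 3 each), with a 95% interval from -0.34 to 0.60 and an adjusted p of 0.794 by edgeR's quasi-likelihood test. Dhx58 (chr11:100694884-100704271), the gene of the regulator LGP2, was rare, at 1.41, 0.712 and 2.0 CPM in WT cultures 1, 2 and 3 and 1.08, 1.03 and 1.62 CPM in Nipbl+/- cultures 1, 2 and 3. These levels rested on 16 to 43 counts per culture. Its log2 fold change of -0.14 ± 0.381 (SE, n = 3 each) had a 95% interval from -1.02 to 0.73 (adjusted p = 0.889, edgeR's quasi-likelihood test).

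For the cell-surface receptors of lipoproteins, the genotypes overlapped in every case. Tlr2 (chr3:83836273-83841767), the shared partner of TLR1 and TLR6, had 4.85, 3.78 and 5.38 CPM in WT cultures 1, 2 and 3 and 5.41, 5.5 and 4.11 CPM in Nipbl+/- cultures 1, 2 and 3. The groups overlapped, and the log2 fold change was 0.10 ± 0.186 (SE, n = 3 each, 95% interval from -0.32 to 0.53). Tlr6 (chr5:64953106-64960048), which pairs with Tlr2 for diacylated lipoproteins, had 6.08, 4.50 and 7.93 CPM in WT cultures and 5.77, 5.85 and 5.11 CPM in Nipbl+/- cultures in the same order. All 3 mutant values lay within the WT range, with a log2 fold change of -0.14 ± 0.204 (SE, n = 3 each, 95% interval from -0.61 to 0.32). The adjusted p was 0.823 for Tlr2 and 0.774 for Tlr6 by edgeR's quasi-likelihood test.

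Tlr1 (chr5:64924811-64932761), which pairs with Tlr2 for triacylated lipoproteins, was the most variable of the 10 in WT MEFs. Its WT cultures 1, 2 and 3 had 1.54, 0.668 and 6.12 CPM, and its Nipbl+/- cultures had 2.98, 4.05 and 3.44 CPM. The coefficient of variation was 105% in WT and 15.5% in Nipbl+/- cultures (n = 3 each). The log2 fold change of 0.34 ± 0.620 (SE, n = 3 each) had a 95% interval from -1.08 to 1.76 and an adjusted p of 0.829 by edgeR's quasi-likelihood test. Single WT cultures moved this value in opposite directions, as it was 1.66 without WT culture 3 (adjusted p = 0.0715) and -0.13 without WT culture 2 (adjusted p = 0.927, same test). Tlr1 and Tlr6 lie 20344 bases apart on chromosome 5 and shared 454 identical windows of 50 bases, 13.6% of those of Tlr1 and 12.3% of those of Tlr6, so reads of this stretch may have been split between them. No other pair of members shared such a window.

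Of the endosomal receptors, Tlr3 (chr8:45395665-45410608) for double-stranded RNA had 4.85, 5.25 and 6.54 CPM in WT cultures 1, 2 and 3 and 6.09, 6.54 and 5.30 CPM in Nipbl+/- cultures 1, 2 and 3. The ranges covered each other almost entirely. Its log2 fold change was 0.11 ± 0.159 (SE, n = 3 each), with a 95% interval from -0.25 to 0.47 and an adjusted p of 0.778 by edgeR's quasi-likelihood test.

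Tlr7, on chrX:167304929-167330558, was counted 23, 19 and 31 times in WT cultures 1, 2 and 3 and 58, 102 and 43 times in Nipbl+/- cultures 1, 2 and 3. In CPM these were 1.04, 0.846 and 1.44 against 2.62, 3.90 and 2.05. All 9 pairs of a WT and a mutant culture had the higher value in the mutant. The 2.59-fold difference, 1.37 ± 0.312 on the log2 scale (SE, n = 3 each), had a 95% interval from 0.66 to 2.09 and missed the threshold with an adjusted p of 0.0674 by edgeR's quasi-likelihood test. An exact permutation test of the 3 against 3 levels gave a two-sided p of 0.1, the smallest it can give. In the alternative tests the adjusted p was 0.0029 (edgeR's exact test), 0.0023 (edgeR's likelihood ratio test) and 0.0108 (DESeq2), and leaving out single cultures gave adjusted p-values from 0.0715 to 0.221 in the quasi-likelihood test.

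Tlr8 (chrX:167242696-167264329), 40599 bases from Tlr7, was the rarest of the 10. It was counted 12, 11 and 16 times in WT and 30, 48 and 13 times in Nipbl+/- cultures 1, 2 and 3, or 0.544, 0.490 and 0.742 CPM against 1.35, 1.83 and 0.621 CPM. Mutant cultures 1 and 2 exceeded every WT culture and mutant culture 3 fell below WT culture 3. The log2 fold change was 1.12 ± 0.418 (SE, n = 3 each, 2.17-fold), with a 95% interval from 0.16 to 2.07 and an adjusted p of 0.232 by edgeR's quasi-likelihood test. The value without mutant culture 2 was 0.74 (adjusted p = 0.528, same test). An exact permutation test gave a two-sided p of 0.2 (n = 3 each). The other tested genes within 200000 bases of Tlr7 had log2 fold changes of -0.14 for Prps2, -0.03 for Tmsb4x and -0.49 for Frmpd4.

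**Figure D2:**
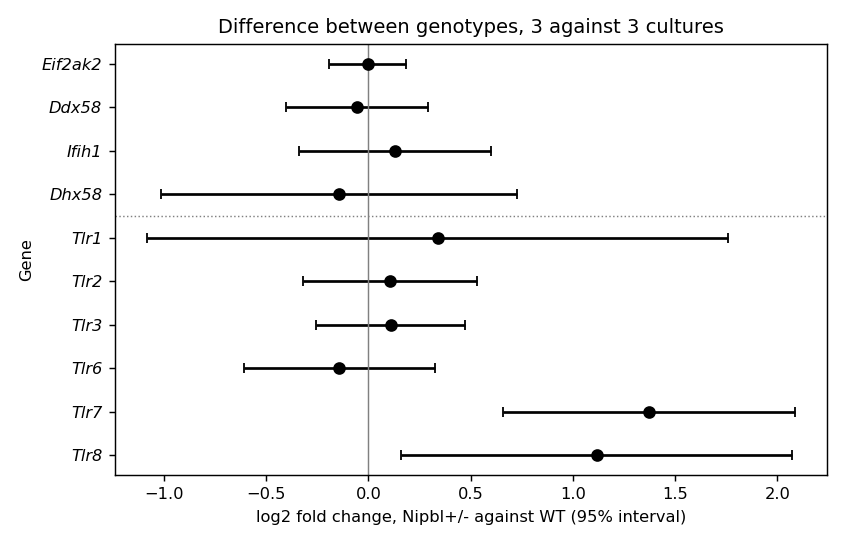
Log2 fold change of Nipbl+/- against WT (points) with its 95% interval (bars) for the 10 genes, from edgeR's quasi-likelihood fit on 3 against 3 cultures, sensors above the dotted line. The intervals of Tlr7 (0.66 to 2.09) and Tlr8 (0.16 to 2.07) lie above 0 and the other 8 cover 0.

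The sex-linked transcripts also differed between cultures. Xist, the RNA of the inactive X chromosome, was at 361, 340.2 and 301 CPM in WT culture 3 and Nipbl+/- cultures 1 and 2, where the Y-linked gene Ddx3y stood at 0.510 CPM or less. In WT cultures 1 and 2 and Nipbl+/- culture 3, Xist was at 1.13 CPM or less and Ddx3y between 243 and 266 CPM. Tlr7 was higher in mutant cultures within each class, at 2.62 and 3.90 against 1.44 CPM where Xist was high, and at 2.05 against 1.04 and 0.846 CPM where it was low. Each class held a single culture of one genotype, and the difference within it was not tested. With the Xist level as a covariate, the log2 fold change was 1.16 for Tlr7 (adjusted p = 0.0636) and 0.76 for Tlr8 (adjusted p = 0.335) by edgeR's quasi-likelihood test. Tlr8 in the low class was 0.621 CPM in the mutant culture against 0.544 and 0.490 CPM in WT.

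Myeloid markers moved in the same direction as Tlr7 and Tlr8. Of 33 markers in the files, 15 lay on the plus strand and were at 0, among them the defining macrophage genes Csf1r, Itgam and Emr1. All 18 others were tested. Of these 18, 17 had a log2 fold change above 0, against 48.4% of all tested genes, and 15 had an unadjusted p under 0.05, against 16.9%. In 9 of them the 3 mutant cultures lay above the 3 WT cultures, against 12.0%. None passed the adjusted threshold by edgeR's quasi-likelihood test, and edgeR's exact test, its likelihood ratio test and DESeq2 each called 8, where 4.77%, 4.88% and 4.56% of all genes were called. The quasi-likelihood test called 7 without a filter on low counts and 1 with a replicate block. Their median log2 fold change was 1.03, and their summed level ran from 87.8 to 115 CPM in WT and from 129 to 257 CPM in Nipbl+/- cultures. The most abundant of them was the macrophage lysozyme gene Lyz2, at 45.3, 33.4 and 33.9 CPM in WT and 65.5, 112 and 52.9 CPM in Nipbl+/- cultures (log2 fold change 1.04 ± 0.257, SE, n = 3 each, adjusted p = 0.0838). The closely related Lyz1 gave 1.02 (adjusted p = 0.177), and the tetraspanin Cd53 gave -0.19 (adjusted p = 0.484, same test). In bulk cultures, a larger number of cells of one type and more RNA per cell cannot be told apart.

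Tlr7 was then set against the myeloid markers. Per 1000 CPM of summed myeloid markers, it stood at 9.11, 9.63 and 15.2 CPM in WT and at 16.1, 15.1 and 15.9 CPM in Nipbl+/- cultures 1, 2 and 3, so WT culture 3 overlapped the mutant cultures. With Lyz2 left out of the sum, a choice made after seeing the data, the values were 15.1, 15.6 and 23.8 CPM in WT and 27.1, 26.8 and 27.0 CPM in Nipbl+/- cultures, without overlap. Relative to the mean log2 CPM of the 18 markers, where each marker weighs the same, Tlr7 was at -1.69, -1.67 and -1.13 in WT and at -0.98, -1.09 and -1.02 in Nipbl+/- cultures, without overlap. Tlr8 per 1000 CPM of myeloid markers was 4.75, 5.58 and 7.87 CPM in WT and 8.35, 7.13 and 4.82 CPM in Nipbl+/- cultures, with overlapping ranges. The part of these markers in the difference in Tlr7 and Tlr8 was not tested.

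**Figure D3:**
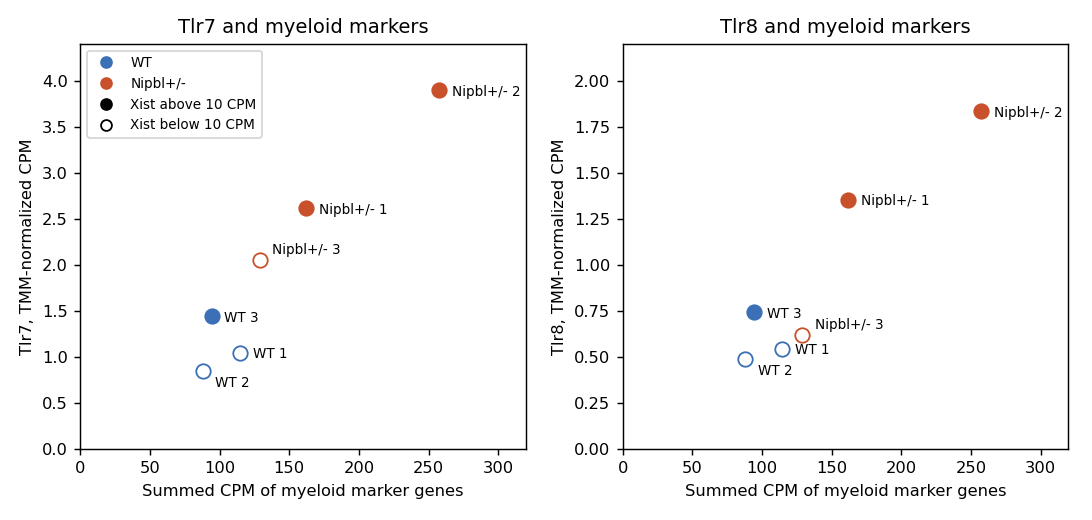
TMM-normalized CPM of Tlr7 (left) and Tlr8 (right) against the summed CPM of the myeloid marker genes in each culture, WT in blue and Nipbl+/- in red, filled where Xist was above 10 CPM. Nipbl+/- culture 2 has the highest value on every axis, and the WT cultures lie below 115 CPM of markers.

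Other cell types could be followed less well. The endothelial markers summed to between 69.3 and 104 CPM in WT and between 71.0 and 93.3 CPM in mutant cultures, led by Flt1 (log2 fold change -0.08), Kdr (-0.01) and Tie1 (-0.02). The epithelial markers summed to 14.4 to 15.8 CPM in WT and to 11.5 to 14.1 CPM in mutant cultures, without overlap. Krt19 (-0.41, adjusted p = 0.122) was lower in each mutant culture than in each WT culture. Krt8 (1.48, adjusted p = 0.227) was higher in each, and Cldn4 (0.75, adjusted p = 0.564) overlapped, all by edgeR's quasi-likelihood test. No lymphoid marker was tested, and their sum lay between 0.267 and 1.03 CPM in the 6 cultures. Of the 3 fibroblast markers that were tested, Fn1 had a log2 fold change of 0.12, the transcription factor gene Prrx1 -0.30 and Fap 0.64. None was past the threshold by edgeR's quasi-likelihood test, and Prrx1 and Fap had an unadjusted p under 0.05.

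The tested genes whose profile over the 6 cultures was nearest to that of Tlr7 were sought among 8263 genes with a mean above 1 CPM. The measure was the root mean square difference of centred log2 CPM, given here as a description. Nearest were the leukocyte exchange factor Dock2 (0.129), the macrophage scavenger receptor Msr1 (0.166) and the leukocyte phosphatase Ptprc (0.177). For Tlr8 they were the Fc receptor chain Fcer1g, Hpgds and the phosphatase Ptpn6. The profile of Ifih1 was followed most closely by Capn6, Cyp4f13 and the interferon-stimulated gene Samd9l, and that of Eif2ak2 by Gm15981, Lrrc28 and Mfsd8.

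The 2 classes were contrasted within each culture as the mean log2 CPM of the 6 receptors minus that of the 4 sensors. This difference was -2.90, -2.93 and -2.75 in WT cultures 1, 2 and 3 and -2.36, -1.98 and -2.75 in Nipbl+/- cultures 1, 2 and 3. Mutant cultures 1 and 2 stood above the WT range and mutant culture 3 lay at its upper edge. The means were -2.86 ± 0.0989 in WT and -2.36 ± 0.383 in mutant cultures (SD, n = 3 each), a shift of 0.50 toward the receptors. The shift was 0.52 with a smaller prior count and 0.52 from RPKM, and it ranged from 0.31 to 0.69 as single cultures were left out. Medians of the log2 fold changes were -0.03 over the 4 sensors and 0.22 over the 6 receptors, and 0.11 over the 4 receptors other than Tlr7 and Tlr8. The shift is a mean of log2 levels, in which Tlr1 weighed beside Tlr7 and Tlr8, and more than Tlr2, Tlr3 and Tlr6. Without a prior count, the centred log2 CPM of Tlr1 was -0.71, -1.92 and 1.28 in WT and 0.24, 0.68 and 0.44 in Nipbl+/- cultures. Its fitted log2 fold change, which enters the medians, was 0.34.

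A log2 fold change above 0 was seen in 1 of 4 sensors and 5 of 6 receptors, against 48.4% of all tested genes. Without WT culture 3, these counts became 4 of 4 and 6 of 6, and without WT culture 2 they became 0 of 4 and 3 of 6. The contrast was also taken between single genes, only for Tlr7 and Tlr8, the receptors with the largest differences. Per 1000 CPM of Eif2ak2, Tlr7 stood at 9.44, 7.61 and 10.7 CPM in WT and at 21.6, 32.0 and 18.2 CPM in Nipbl+/- cultures 1, 2 and 3, with no overlap. An exact permutation test of these ratios gave a two-sided p of 0.1, the smallest possible for 3 against 3 cultures. Tlr7 alone gave the same p and the sensors changed little, so the ratios repeat the result for Tlr7 and are no separate support. The ratio of Tlr7 to Ddx58, Ifih1 and Dhx58 was likewise higher in all 9 pairs, whereas that of Tlr8 was higher in 9 pairs for Ddx58, 8 for Eif2ak2 and 7 for Ifih1 and for Dhx58.

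The sensors shared a pattern over the cultures that did not follow genotype. All 4 sensors, with Tlr1, Tlr3 and Tlr6, were highest in WT culture 3, 7 of the 10 genes where 19.2% of tested genes were. For Tlr3 the margin was slight, at 6.542 CPM against 6.535 CPM in Nipbl+/- culture 2. Of the WT cultures, only WT culture 3 had high Xist (361 CPM), as did Nipbl+/- cultures 1 and 2. Whether this bears on the pattern was not tested. In all, 8 of the 10 were lowest in WT culture 2, against 18.0% of tested genes. The exceptions were Eif2ak2 and Tlr3, which were lowest in WT culture 1. For Eif2ak2 this rested on 110.6 CPM against 111.2 CPM in WT culture 2. The SD of log2 CPM was larger among WT than among mutant cultures for 8 of the 10, against 54.8% of tested genes, and Tlr7 and Tlr8 were the other two. For Ddx58 the coefficient of variation was 25.4% in WT and 4.74% in Nipbl+/- cultures (n = 3 each).

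Other interferon-stimulated genes were often highest in the same culture. Of 15 tested genes of that list other than the sensors, 10 (66.7%) were highest in WT culture 3. Their mean log2 CPM deviated from the mean of the 6 cultures by -0.27, -0.37 and 0.49 in WT cultures 1, 2 and 3 and by 0.19, -0.05 and 0.01 in the mutant cultures. The ubiquitin-like modifier Isg15 is an example, at 3.58, 2.36 and 8.49 CPM in WT and 5.91, 3.52 and 4.39 CPM in Nipbl+/- cultures.

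**Figure D4:**
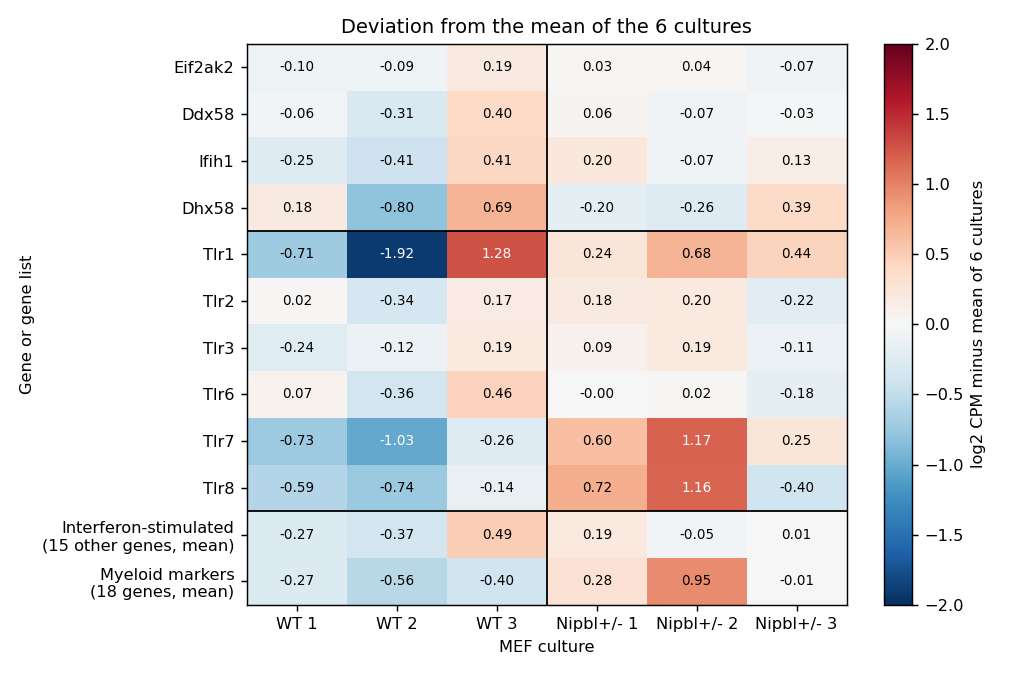
Log2 CPM minus its mean over the 6 cultures (colour and printed value) for the 10 genes, with the mean of 15 other interferon-stimulated genes and of 18 myeloid markers in the lowest rows. The sensors share a maximum in WT 3 with the interferon-stimulated genes, at 0.19 to 0.69, while Tlr7 and Tlr8 share with the myeloid markers a maximum in Nipbl+/- 2. Rows of single genes used no prior count and the list means a prior count of 2, so their sizes are not on the same scale.

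Levels between genes were compared per gene length, by the deposited RPKM. In WT MEFs the mean order was Eif2ak2 (22.2 RPKM), Ddx58 (8.67), Tlr6 (2.27), Tlr2 (1.48), Ifih1 (1.31), Tlr3 (1.20), Tlr1 (1.01), Dhx58 (0.401), Tlr7 (0.260) and Tlr8 (0.158). Only the steps from Eif2ak2 to Ddx58 and from Ddx58 to Tlr6 separated neighbours whose WT ranges did not overlap. In Nipbl+/- MEFs the means were 22.7 RPKM for Eif2ak2 and 8.56 for Ddx58, and Tlr7 at 0.685 RPKM stood above Dhx58 at 0.374 RPKM in all 3 cultures, without overlap. The steps from Tlr6 to Tlr2 and from Tlr1 to Tlr7 also separated neighbours that did not overlap there. In both genotypes PKR and RIG-I mRNA were the most abundant, and LGP2, TLR7 and TLR8 mRNA were the scarcest by mean.

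The genes that act with these sensors and receptors were then followed as lists. Of 183 listed, 93 lay on the plus strand and 78 were tested. None passed the adjusted threshold by edgeR's quasi-likelihood test, and 11 had an unadjusted p under 0.05, a share near the 16.9% of all tested genes. The exact and likelihood ratio tests of edgeR each called 3 of the 78 (Btk and Zcchc3 higher, Ppp1r15a lower), and DESeq2 called Ppp1r15a alone. Over all genes these tests called 4.77%, 4.88% and 4.56%, in that order, so the lists were not called more often than genes in general.

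Among 19 tested partners of toll-like receptors the median log2 fold change was 0.06. The genes with the smallest p were those of the kinase Btk (1.55 ± 0.429, adjusted p = 0.112), the scavenger receptor Cd36 (1.22 ± 0.395, adjusted p = 0.165) and the co-receptor Cd14 (0.58 ± 0.214, adjusted p = 0.225, SE, n = 3 each, edgeR's quasi-likelihood test). These genes are also expressed by macrophages, and Cd14 is one of the 18 myeloid markers. Of the 6 toll-like receptors that are not among the 10 genes, 5 lay on the plus strand, and Tlr12, on the minus strand, was at 0 counts in all cultures.

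For the pathway of RIG-I and MDA5, co-sensors and regulators included, 18 tested genes had a median of 0.00. Zcchc3, an RNA-binding co-sensor, gave 0.50 ± 0.123 (adjusted p = 0.0837), the kinase gene Tbk1 0.14 ± 0.045 (adjusted p = 0.153) and Dak 0.29 ± 0.10 (adjusted p = 0.196, SE, n = 3 each, edgeR's quasi-likelihood test). Every mutant culture lay above every WT culture in 4 of the 18 genes, against 12.0% of all tested genes. These 3 were among the 4, but they were named for their smallest p, so their lack of overlap is no separate support. For PKR and eIF2α, 11 tested genes had a median of -0.03. Ppp1r15a, which encodes the stress-induced subunit that directs dephosphorylation of eIF2α, had 72.3, 71.3 and 67.0 CPM in WT and 58.2, 61.6 and 56.4 CPM in Nipbl+/- cultures. Its log2 fold change was -0.26 ± 0.054 (SE, n = 3 each) with an adjusted p of 0.0554 by edgeR's quasi-likelihood test. The PKR activator gene Prkra gave -0.10 (adjusted p = 0.450) and the stress-response factor Atf3 0.24 (adjusted p = 0.477).

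Genes of 2′-5′ oligoadenylate synthesis and RNase L gave a median of -0.09 over 6 tested genes, with Pde12 at -0.06, Oas3 at -0.15 and Oas1a at -0.15. The interferon-stimulated list, sensors included, had a median of 0.01 over 19 genes, with Ifitm3 at -0.15, Trim30a at 0.56 and Dtx3l at 0.14. Genes of the NF-κB pathway and inflammatory targets, listed together, had a median of 0.06 over 12 genes. The chemokine Ccl3 was at 1.22 (adjusted p = 0.280), Ikbkb at -0.09 (adjusted p = 0.379) and Tnfaip3 at 0.35 (adjusted p = 0.398, edgeR's quasi-likelihood test).

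How much each culture weighed on the 10 values was followed by leaving each out in turn. Of the 10 genes, 7 changed sign in at least 1 of these fits, namely all 4 sensors, Tlr1, Tlr2 and Tlr6, while Tlr3, Tlr7 and Tlr8 stayed above 0 in each. Tlr7 ranged from 1.07 to 1.6 and Tlr8 from 0.74 to 1.43, both lowest without Nipbl+/- culture 2, the culture with the highest myeloid markers.

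**Figure D5:**
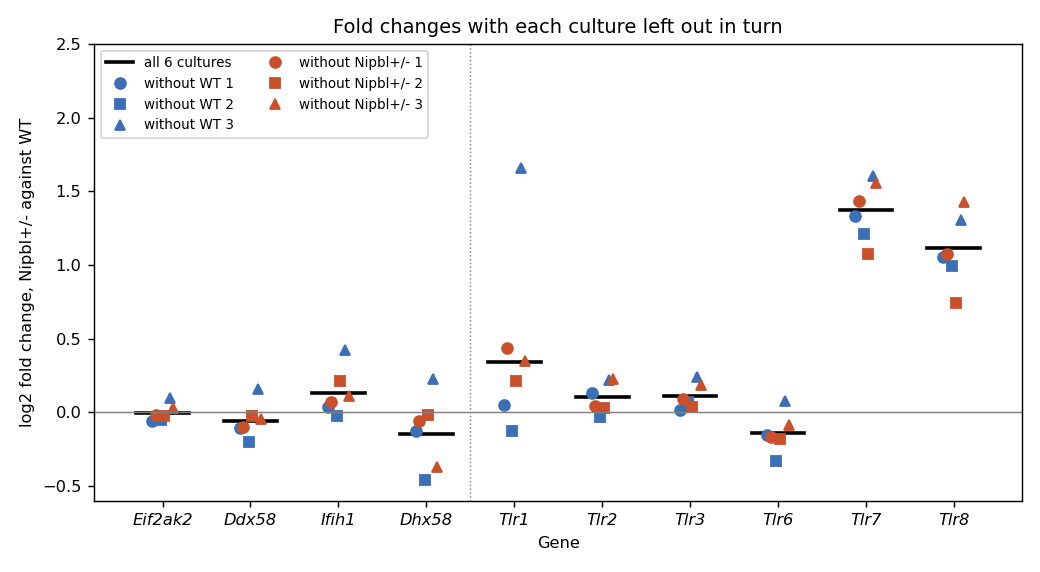
Log2 fold change of Nipbl+/- against WT for the 10 genes with all 6 cultures (black bars) and with each culture left out in turn (blue without a WT culture, red without a Nipbl+/- culture). Tlr7 (1.07 to 1.6) and Tlr8 (0.74 to 1.43) stay above the other genes in most fits, and Tlr1 reaches 1.66 without WT 3.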

How the data were processed

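Ribo-depleted RNA of 3 WT and 3 Nipbl+/- MEF cultures was sequenced. The authors aligned reads to mm10 and Ensembl 72 with TopHat 2.0.10 and deposited raw counts and RPKM values for each gene and culture. Neither the counting tool nor its strand setting is given in the sources used here. Counts were filtered with filterByExpr (minimum count 10), normalized by TMM and compared between genotypes by edgeR's quasi-likelihood test (edgeR 4.0.16, R 4.3.3), with no covariate and with Benjamini-Hochberg adjustment over 9061 genes and a threshold of 0.05. Log2 CPM used a prior count of 2 in class and list means and in the search for nearest profiles. The deviations of single members from their mean over the cultures used none. Each SE is the size of the log2 fold change over the root of F. DESeq2 1.42.0, other edgeR tests, scalings and filters, an Xist covariate, a replicate block and leaving out each culture were alternatives, and those for the pathway lists were chosen after seeing the data. Exact permutation tests were two-sided. In simulated data with 2-fold changes, 160 of 199 changed genes (80.4%) were recovered with 4 false calls among 8976 genes. The changed genes were drawn at random from all tested genes, so this share does not hold for rarely counted members such as Tlr7 and Tlr8.

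Members and lists were chosen with earlier results of these data known. Genes named were the 10 members, Nipbl, genes past the threshold and the 3 with the smallest p of each pathway list, the 3 most abundant tested markers of each cell type, Xist and Ddx3y, and the 3 nearest profiles of 4 members. Markers at 0, Isg15 and the genes next to Tlr7 were named after their values were seen. Coordinates are mm10, and promoter sequences are from RefSeq (GRCm38.p6). Replicates differed by more than sampling noise (chi-square per degree of freedom 9.51 to 32.3). Counts of members ran from 11 to 3189 per culture.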

Additional observations from a re-analysis of the deposited data

How the results depend on the processing

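The count of members past the threshold, 0 in edgeR's quasi-likelihood test, was 1 (Tlr7) in edgeR's exact and likelihood ratio tests, in DESeq2 and without a filter on low counts, where its adjusted p was 0.0298. The count over the pathway lists, 0 in that test, was 3 in the exact and likelihood ratio tests and 1 in DESeq2, alternatives chosen after seeing the data. Over all genes, 177 calls became 432, 442 and 436 in the exact test, the likelihood ratio test and DESeq2, 325 without a filter, and between 3 (without Nipbl+/- replicate 1) and 268 (without WT replicate 2) as cultures were left out. The cause was not tested.

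Signs turned for Eif2ak2 with library size alone (0.031) and the replicate block (0.0014), and for Tlr2 with the Xist covariate (-0.026). As cultures were left out, log2 fold changes ranged from -0.055 to 0.095 for Eif2ak2, -0.20 to 0.16 for Ddx58, -0.025 to 0.42 for Ifih1, -0.46 to 0.22 for Dhx58, -0.13 to 1.66 for Tlr1, -0.028 to 0.22 for Tlr2 and -0.33 to 0.078 for Tlr6. Tlr3, Tlr7 and Tlr8 kept their sign in every fit run, and Tlr8 had no value with a filter of CPM above 1 in 3 cultures. Same-numbered cultures did not deviate together (correlations -0.06, -0.04 and -0.14). Each such pair also differed in Xist and Ddx3y, so these values cannot settle whether the numbers pair the cultures. With the replicate block, no member passed, Tlr7 stood at 1.34 on the log2 scale (adjusted p = 0.142 by edgeR's quasi-likelihood test), and 86 genes were called in all. Tlr7, Tlr8 and Dhx58 rest on 11 to 102 counts per culture, and their biological coefficients of variation in edgeR were 0.231, 0.292 and 0.281.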
